A study of Saccharomyces cerevisiae BY4741 with 16 samples.

Results

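The genes that encode the H3K4 methylase complex of budding yeast, *Saccharomyces cerevisiae*, and its opposing demethylase were followed for 2 histone marks while RNA polymerase II (RNAPII) was taken out of the nucleus. They were chosen by name, from the systematic names of 8 subunits of COMPASS and of the demethylase *JHD2*, 9 genes in all. Values for 8 of them were read, out of 5218 genes with values; *SWD2* (YKL018W) is not analysed here. The 7 subunit genes were *SET1*, *SWD1*, *SWD3*, *BRE2*, *SDC1*, *SPP1* and *SHG1*.

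COMPASS places all methylation on lysine 4 of histone H3 in this yeast, and its trimethyl form, H3K4me3, marks the start of transcribed genes. Set1 is the catalytic subunit. Swd1 and Swd3 are WD40-repeat proteins that form the core of the complex with it, Bre2 and Sdc1 bind each other and are the counterparts of human ASH2L and DPY30, and Spp1 carries a PHD finger that binds methylated H3K4 and is needed for full trimethylation. Shg1 is a small subunit. Jhd2 is a JmjC-domain enzyme that removes methyl groups from H3K4. The other mark measured, H3K36me3, is placed by Set2 along gene bodies behind elongating RNAPII. Both marks were read here on the genes that encode these proteins, which is neither their transcript nor their protein level.

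Chromatin immunoprecipitation followed by sequencing was done on log-phase cells before and 20, 40 and 60 min after the addition of rapamycin (1 ug/mL). All groups shared the strain BY4741 Anchor-Away, MATa, with his3D1, leu2D0, ura3D0, tor1D1, fpr1D and RPL13-2xFKBP12-NATMX6. In anchor-away, rapamycin bridges the nuclear target to a tagged ribosomal protein, which carries it out as ribosomal subunits are exported. No tagged polymerase subunit appears in the labelled genotype, and the depletion of RNAPII is known here from the series design only. Per the labels, every group, the 0 min one included, carries the anchor and the rapamycin-resistance mutations. The signal at *FPR1*, given below, differed between libraries, so the values do not bear this out for each of them. There was 1 immunoprecipitated library per mark and time, so no value below has a replicate error and no test was made. Differences are described against the spread over genes.

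The summed signal over genes ranged from 21240 to 24034 for H3K4me3 and from 4172 to 6655 for H3K36me3, and it was lowest at 60 min for both. The depth behind a value is unknown. At *FPR1*, a gene deleted per the labels, H3K4me3 signal was 1.04 to 3.86 over the 4 times, and H3K36me3 signal was 1.21, 0.0335, 0.240 and 0.185 at 0, 20, 40 and 60 min. Signal at this locus, labelled as missing, thus differed between libraries, and no common background level can be read from it. In H3K36me3 it was far below the median over all genes at 20 min (0.824). At 0 min it was above that median (1.08). Why the libraries differed at this locus was not tested. At 0 min that locus was above *JHD2* in both marks (2.26 and 1.62 in H3K4me3). It was above 6 of the 7 subunit genes in H3K36me3. Its H3K36me3 log2 change from 0 min, minus that of the median gene, was -4.37, -1.93 and -2.00 at 20, 40 and 60 min. In H3K4me3 the same measure was -0.68, 0.76 and -0.91. These values limit what the levels, ranks and changes below can show. Whether the deposited signal was divided by gene length is not stated. Across 5115 genes with a known length, the 0 min level and the length had a rho of 0.23 for H3K4me3 and 0.22 for H3K36me3. A gene's level is therefore also placed among the 500 genes nearest to it in length.

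At 0 min *SET1* was the most strongly marked gene of the group in both marks and *JHD2* the least, and the gap between *JHD2* and the subunit genes was wide. *SET1* (YHR119W, chromosome VIII, 346043 to 349285, plus strand) had H3K4me3 signal of 6.44 at 0 min, at percentile 87.8 of all genes and 81.8 of genes of like length. *JHD2* (YJR119C, chromosome X, 644304 to 646490, minus strand) had 1.62, at percentile 9.46 of all genes and 5.8 of genes of like length. The lowest subunit gene in H3K4me3, *SHG1*, was at 3.51, which is 2.16 times the *JHD2* level, and the median subunit gene was at 3.12 times it. In H3K36me3 *SET1* was at 1.40 and *JHD2* at 0.168, percentiles 63.7 and 3.25 of all genes. The lowest subunit gene in H3K36me3, *SDC1*, was at 0.574, or 3.42 times the *JHD2* level. *JHD2* kept this low rank in H3K4me3, at percentiles 8.67, 9.80 and 9.30 at 20, 40 and 60 min.

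Between these ends lay the other core genes and the accessory subunits. *SWD3* (YBR175W, chromosome II, 582408 to 583355, plus strand) and *SPP1* (YPL138C, chromosome XVI, 291366 to 292427, minus strand) had H3K4me3 of 5.84 and 5.79 at 0 min, percentiles 76.2 and 74.8 of all genes. *SWD1* (YAR003W, chromosome I, 155005 to 156285, plus strand) and *BRE2* (YLR015W, chromosome XII, 175227 to 176744, plus strand) were near the median gene, at 5.06 and 4.76, where the median was 4.91. *SDC1* (YDR469W, chromosome IV, 1399015 to 1399542, plus strand) and *SHG1* (YBR258C, chromosome II, 729734 to 730162, minus strand) were lower, at 4.33 and 3.51, percentiles 35.2 and 22.3. These are the shortest of the group, with 528 and 429 bases, and among genes of like length they stood at percentiles 41.8 and 33.2. No gene of the group overlaps another annotated gene.

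H3K36me3 placed the subunit genes lower than H3K4me3 did. At 0 min 4 of 7 subunit genes were above the median gene in H3K4me3 and 2 of 7, *SET1* and *SWD3*, in H3K36me3. *SWD1* was at percentile 54.0 of all genes in H3K4me3 and 28.5 in H3K36me3. *SPP1* was at 74.8 and 40.0, and *BRE2* at 45.8 and 32.6. *SHG1* was the exception, at 22.3 in H3K4me3 and 24.4 in H3K36me3. Among genes of like length *SHG1* was at 33.2 and 44.4, so higher in H3K36me3. *SET1* was at 81.8 and 51.4 on that base and *SDC1* at 41.8 and 32.4, and every subunit gene but *SHG1* was lower in H3K36me3. *SWD3* and *SPP1*, neighbours in the order of H3K4me3 levels, differed by less than each of them varied over the 4 times. Without replicates, no step in this order has an error.

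**Figure D1:**
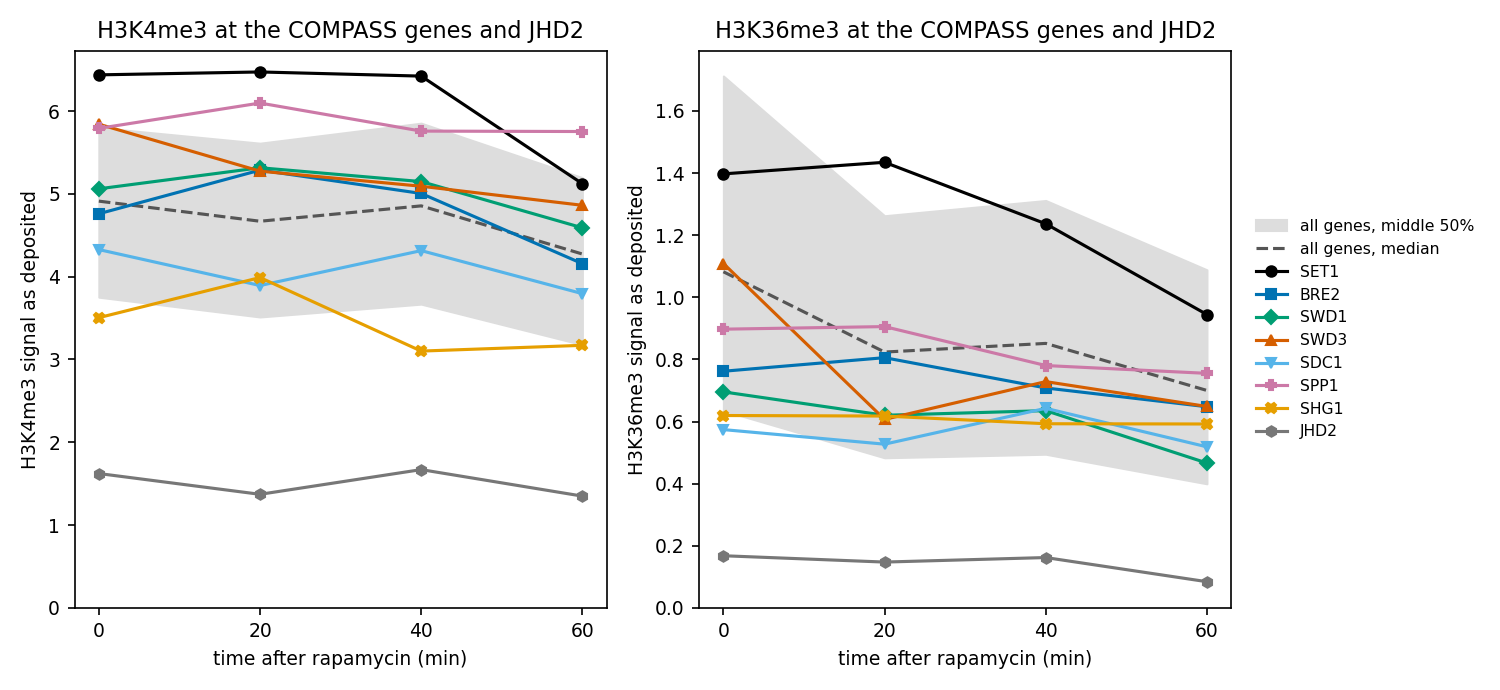
Deposited signal (vertical axis, linear from 0) of each gene against time after rapamycin in min, H3K4me3 on the left and H3K36me3 on the right, 1 library per point, with the median and middle 50% of all 5218 genes in grey. *SET1* lies highest in H3K36me3 at every time and *JHD2* lowest in both marks, at 1.62 and 0.168 at 0 min.

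**Figure D2:**
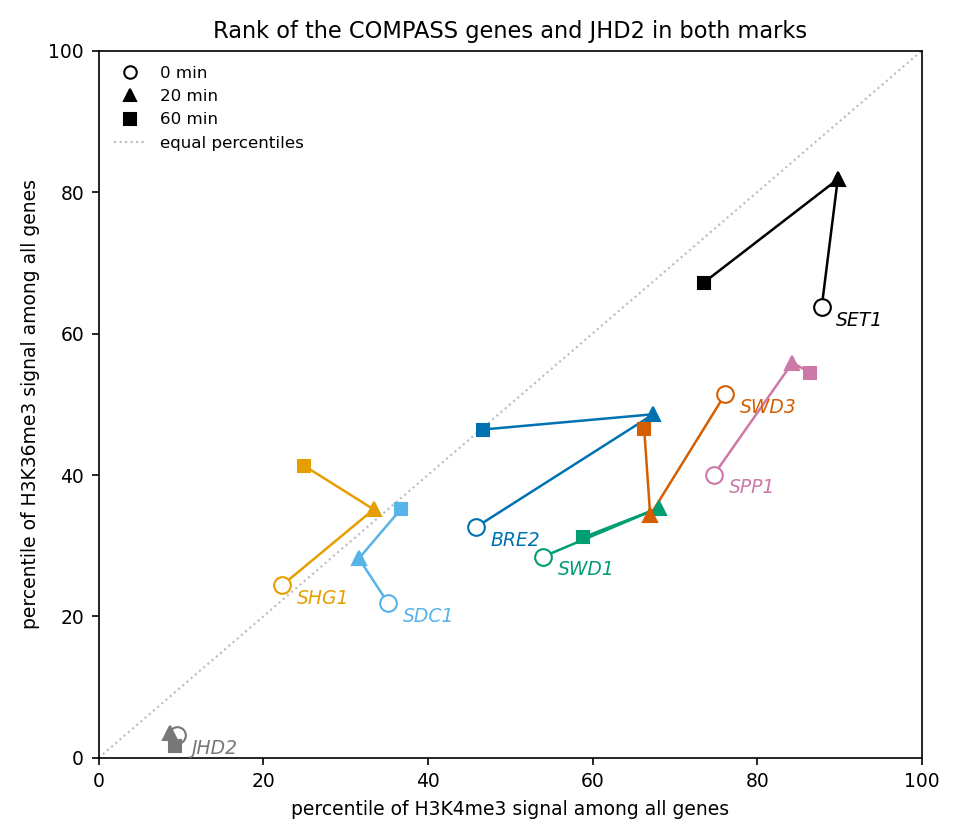
Percentile of each gene among all genes in H3K4me3 (horizontal) and H3K36me3 (vertical) at 0 min (open circle), 20 min (triangle) and 60 min (square), joined by lines. From 0 to 20 min the symbols of all subunit genes but *SWD3* lie higher on the vertical axis (*SET1* from 63.7 to 81.8), and *JHD2* stays in the lower left corner.

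As deposited, H3K36me3 stayed close to its starting level at 20 min on most of the subunit genes. The median gene was then at 75.1% of its own. *SET1*, *BRE2* and *SPP1* were at or slightly above their 0 min level, *SHG1* was level with it, and *SWD1* and *SDC1* were somewhat lower. *SWD3* was the exception, at 54.7% of its 0 min level. Scaled to the column totals, 1 of 7 (*SWD3*) was below its 0 min level at 20 min, against 44.2% of genes. In what follows, a change is the log2 ratio to 0 min with a small pseudocount, and "relative" means minus the change of the median gene, which was -0.41 at 20 min, -0.36 at 40 min and -0.65 at 60 min for H3K36me3. A relative change of more than 0.25 in size was counted as past the threshold.

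The core genes differed among themselves in H3K36me3. *SET1* had signal of 1.40, 1.43, 1.24 and 0.945 at 0, 20, 40 and 60 min. It was thus flat at first and lower at 60 min, with relative changes of 0.45, 0.19 and 0.09. *SWD1* had 0.695, 0.620, 0.635 and 0.466, with relative changes of 0.25, 0.23 and 0.08. As for *SET1*, most of its difference from the starting level stood in the 60 min library. *SWD3*, which encodes the other WD40 protein of the core, had 1.11, 0.607, 0.728 and 0.648. Its signal was lowest at 20 min, with relative changes of -0.44, -0.24 and -0.12, and 11.6 was its percentile among the 20 min changes of genes past the filter.

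*BRE2* and *SDC1*, the genes of the paired subunits, had H3K36me3 changes above that of the median gene at all 3 later times. So did every other subunit gene apart from *SWD3*. The share of all genes that did so was not computed, and the 3 changes share the 0 min library. The count is therefore not read as a feature of these genes. *BRE2* had 0.762, 0.806, 0.708 and 0.648, and relative changes of 0.49, 0.26 and 0.42. *SDC1* had 0.574, 0.527, 0.643 and 0.518, with its highest level at 40 min, and relative changes of 0.29, 0.52 and 0.50. At 60 min both stood high among genes, at percentiles 86.4 and 90.3 of the changes.

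As deposited, the genes of the accessory subunits had the flattest courses, which depends on the scale of each library. For *SPP1* the range was 18.0% of its mean, close to 21.6% for *BRE2*. *SHG1* had H3K36me3 of 0.619, 0.618, 0.593 and 0.592, so that its lowest and highest value differed by 4.51% of their mean. Its relative changes were 0.41, 0.30 and 0.58, and the last was at percentile 93.4. *SPP1*, the PHD-finger gene, had 0.897, 0.906, 0.780 and 0.755, and relative changes of 0.43, 0.16 and 0.40. *JHD2* had 0.168, 0.147, 0.162 and 0.0841. Its mean over the times was under the minimum of 0.219 set for H3K36me3, and it is left out of the medians and counts for that mark unless it is named in them. At so low a level its 60 min value, 50.2% of the 0 min one, rests on little signal, and its relative change of -0.26 turned to 0.06 with a pseudocount of 10% of the median level.

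At 20 min 6 of the 7 subunit genes had a relative H3K36me3 change above 0.25, where 23% of the 4861 genes past the filter did, and 1, *SWD3*, had one below -0.25, where 24.4% did. The median over the 7 was 0.41. *SWD1*, at 0.25, lay at the threshold, and no member reached 0.5. At 40 min 3 of 7 (*BRE2*, *SDC1* and *SHG1*) were above 0.25, against 24% of genes, and none was below -0.25, against 25.4%. At 60 min 4 of 7 (*BRE2*, *SDC1*, *SPP1* and *SHG1*) were above it, against 25.4%, and none was below -0.25, against 24.9%. The median of the 7 was 0.23 at 40 min and 0.40 at 60 min. With *JHD2* included and no minimum level, the median at 60 min was 0.24. As deposited, 4 of 7 were below their 0 min level at 20 min, against 88.4% of genes, 6 of 7 at 40 min, against 84.3%, and all 7 at 60 min, against 95.2%. At all 3 later times 3 of 7 (*SWD1*, *SWD3* and *SHG1*) were below it, against 79.6%, and 0 of 7 above it, against 2.94%.

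Genes with little H3K36me3 at 0 min generally kept more of it at 20 min, with a rho of -0.34 between the level at 0 min and the change over 4861 genes, which share the 0 min library on both axes. Most subunit genes began below the median gene. Set against the 500 genes nearest to each in mean level, an alternative chosen after seeing the data, the median of the 7 was 0.38 at 20 min, 0.22 at 40 min and 0.39 at 60 min. *SET1*, which began above the median gene, was at 0.46 at 20 min on that base. *SWD3* was at -0.48. The mean level used for this match takes in the later times as well as 0 min, so the matched genes need not share the 0 min level. Whether a low starting level accounts for the contrast with the median gene was not tested.

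**Figure D3:**
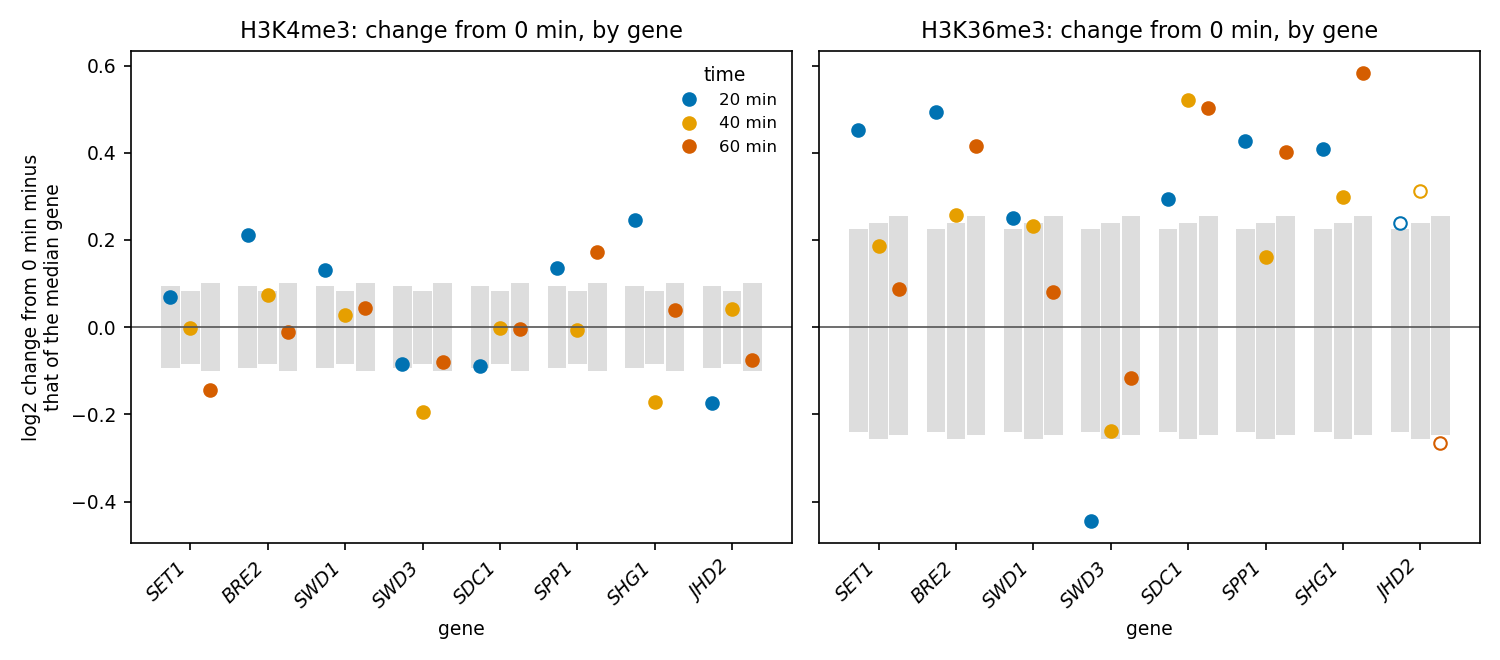
Change from 0 min on the log2 scale minus that of the median gene (vertical axis) for each gene, H3K4me3 on the left and H3K36me3 on the right, at 20, 40 and 60 min, with grey bars for the middle 50% of all genes past the filter and open points for *JHD2* where it was under the minimum level. In H3K36me3 at 20 min 6 subunit genes lie above the grey bar and *SWD3* below it, at -0.44, while H3K4me3 points lie between -0.19 and 0.25.

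All comparisons above share the 0 min library. Steps between later times leave it out but measure another interval. They cannot show whether the contrast with the median gene depends on that library. A contrast reached by 20 min and then kept would lie near the median gene from 20 to 60 min. Over that interval the median gene was at -0.23 and the subunit genes had a median relative change of -0.03. *SET1* was at -0.37 over that interval, below the median gene, and *SWD1* at -0.18. *SWD3* was at 0.32, *SDC1* at 0.20 and *SHG1* at 0.17, above it. *BRE2* and *SPP1* were close to it, at -0.08 and -0.03. With 40 min as the base for the 20 min level, chosen after seeing the data, the median relative value was 0.11, and 2 of 7 (*SET1* and *SPP1*) were above 0.25, against 15.4% of genes.

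H3K4me3 on the same genes stayed close to the median gene. That gene was at -0.06, -0.0024 and -0.18 at 20, 40 and 60 min, and no member had a relative change past 0.25 in either direction at any time. At 60 min 5.41% of 4826 genes were more than 0.25 below the median gene and 5.53% above, so a count of 0 of 8 is near that background. At 20 min the shares were 3.94% and 4.21%, and at 40 min 2.84% and 3.07%. All 8 members passed the minimum level for this mark. Their median relative change was 0.10, -0.0014 and -0.0075 at the 3 times.

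The courses of single genes differed in when the lower level appeared. *SET1* had H3K4me3 of 6.44, 6.47, 6.42 and 5.12. It was flat to 40 min and at 79.6% of its 0 min level at 60 min, with a relative change of -0.14 at 60 min, at percentile 17.7 of genes. *SWD1* had 5.06, 5.32, 5.15 and 4.59, a like course with a smaller difference at the end (relative 0.04). *SWD3* had 5.84, 5.28, 5.09 and 4.86. It was lower at each later time than at the time before, and its relative change was -0.19 at 40 min, at percentile 6.93. *SWD3* was thus the subunit gene that stood below the median gene at all 3 times in both marks.

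*BRE2* had H3K4me3 of 4.76, 5.29, 5.01 and 4.16, with its highest level at 20 min, where the relative change was 0.21. *SDC1* had 4.33, 3.89, 4.32 and 3.80. The genes of this protein pair thus lay on opposite sides of the median gene at 20 min, *SDC1* at -0.09. *SPP1* had 5.79, 6.10, 5.76 and 5.75. As deposited, it was the flattest of the group, with a range of 5.88% of its mean. Its relative change at 60 min was 0.17, the highest of the 8, at percentile 87.7.

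*SHG1* had H3K4me3 of 3.51, 3.99, 3.10 and 3.17. Its 20 min value was the high one, at percentile 95.3 of changes, and its step from 20 to 40 min, -0.42 relative to the median gene, was at percentile 0.30. *JHD2* had 1.62, 1.37, 1.67 and 1.35, low at 20 and 60 min and high at 0 and 40 min. As deposited 3 of 8 were below their 0 min level at 20 min, against 67.4% of genes, 5 of 8 at 40 min, against 50.7%, and all 8 at 60 min, against 88.7%. No member was above it at all 3 later times, against 7.07% of genes. Below it at all 3 later times were 2 of 8, *SWD3* and *SDC1*, against 41% of genes, and *SDC1* at 40 min was at 99.7% of its 0 min level.

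These directions as deposited rest on the scale of each library, which the relative values leave out. Holding the median of the weakest 5% of genes (by mean level) at its 0 min value moved the median gene at 60 min by 0.30 for H3K4me3 and 0.60 for H3K36me3. So scaled, 1 of 8 genes (*SET1*) was below its 0 min level in H3K4me3 at 60 min, against 22.8% of genes past the filter, and 1 of 7 (*SWD3*) in H3K36me3, against 54.8%. Scaled to the column totals, 5 of 8 (*SET1*, *BRE2*, *SWD3*, *SDC1* and *JHD2*) were below it in H3K4me3, against 53.1% of genes, and 1 of 7 (*SWD3*) in H3K36me3, against 48%. The H3K4me3 counts are near these shares. *SET1* in H3K4me3 and *SWD3* in H3K36me3 were lower at 60 min than at 0 min on each of these scales, and so was H3K36me3 on *JHD2*, which was under the minimum level.

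Most of these genes share their upstream region with a gene on the opposite strand. Of the 8 genes, 7, all but *SPP1*, have a divergent upstream neighbour in the R64 gene annotation, as do 51.7% of 5112 genes. The gaps between the divergent genes were 224 to 635 bases with a median of 280, where the median over all divergent genes was 501. Which part of a gene was measured is not stated, and how signal in such a gap was assigned is not known. Upstream of *JHD2*, 635 bases away, lies *DMO1*, which is not analysed here.

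The marks of divergent neighbours went together in some pairs and apart in others. *UMP1*, a proteasome assembly gene 235 bases from *SWD3*, had H3K36me3 of 1.64, 0.904, 0.858 and 0.811. Its relative change at 20 min was -0.44, like that of *SWD3*. *TLG1*, a gene of a membrane fusion protein 314 bases from *SDC1*, had 0.833, 0.914, 1.01 and 0.749, a relative change of 0.55 at 20 min beside 0.29 for *SDC1*. *ORC6*, a gene of the origin recognition complex 414 bases from *SET1*, had 1.09, 0.692, 0.909 and 0.646, a relative change of -0.24 at 20 min beside 0.45 for *SET1*. *PPR1*, a regulator of pyrimidine synthesis, beside *BRE2*, *ERP1* beside *SWD1* and YBR259W beside *SHG1* were near the median gene, at 0.04, -0.05 and -0.12.

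In H3K4me3 the neighbours of *SET1*, *BRE2*, *SWD1* and *SDC1* were below the median gene at 20 min, at -0.14, -0.16, -0.20 and -0.17, while *SET1*, *BRE2* and *SWD1* were above it, at 0.07, 0.21 and 0.13. *SDC1* was on the same side as *TLG1*, at -0.09. *UMP1* was at 0.04 beside -0.08 for *SWD3*, and YBR259W at -0.05 beside 0.25 for *SHG1*. Over all divergent pairs with both genes past the filter, changes at 20 min had a rho of 0.06 for H3K4me3 (1061 pairs) and 0.11 for H3K36me3 (1025 pairs), all from the same libraries. *GIP3*, which lies upstream of *SPP1* on the same strand, had relative H3K4me3 of -0.31 at 60 min beside 0.17 for *SPP1*, and H3K36me3 of -0.44 beside 0.40.

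The downstream neighbours gave a like mixture in H3K36me3. *RFA1*, of the single-stranded DNA binding factor, next to *SWD1*, and *UGO1*, of mitochondrial fusion, next to *SDC1*, were at 0.36 and 0.35 relative to the median gene at 20 min. *ECM31*, of pantothenate synthesis, after *SWD3* was at 0.30, on the other side from *SWD3*. *MSH1*, of mitochondrial DNA repair, after *SET1* and *POP4*, of RNase P, after *SHG1* were at -0.01 and -0.04. *PML1* after *BRE2* was at 0.02 and *UME1*, of the Rpd3 deacetylase complex, after *SPP1* at 0.04. *ILM1* after *JHD2* had a low level of 0.230 at 0 min and 0.392 at 20 min, a relative change of 1.16.

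**Figure D4:**
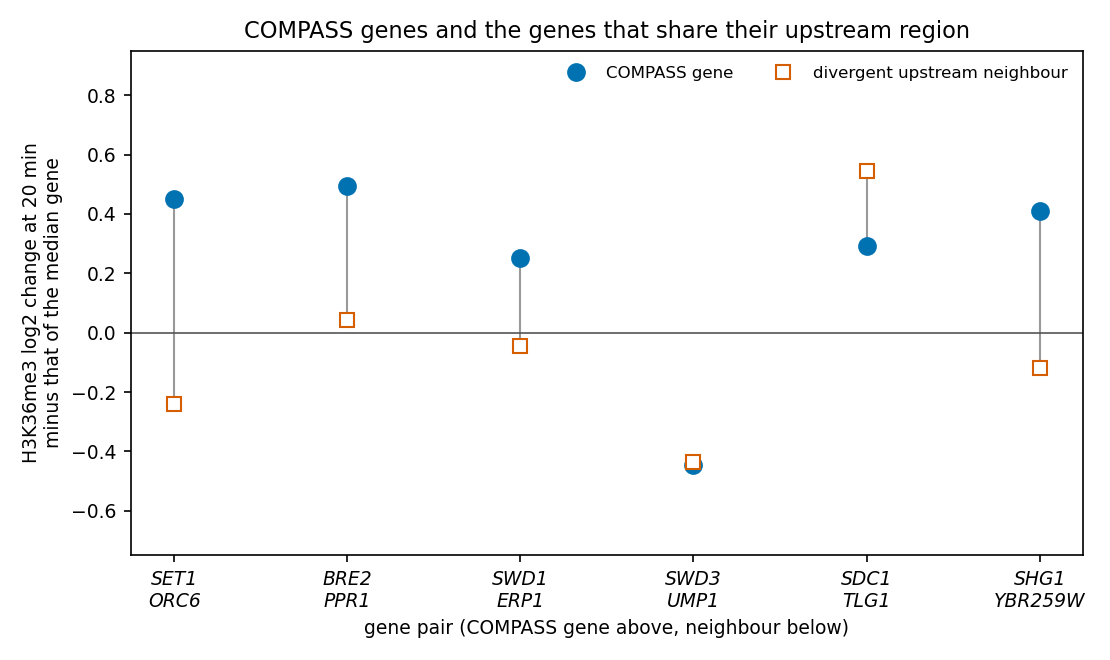
H3K36me3 change at 20 min on the log2 scale minus that of the median gene (vertical axis) for 6 COMPASS genes (filled circles) and the divergent upstream neighbour of each (open squares), 1 library per time. *SWD3* and *UMP1* coincide at -0.44, *SDC1* and *TLG1* both lie above 0, and *SET1* lies above its neighbour *ORC6* (0.45 and -0.24).

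Other genes of the pathway were read for comparison. H2B ubiquitination by Rad6 and Bre1, and the Paf1 complex that travels with RNAPII, are both needed for H3K4 trimethylation by COMPASS. The H2B ubiquitination list also holds genes for the removal of this mark, such as *UBP8* and *UBP10*. The cleavage and polyadenylation factor, CPF, shares the Swd2 subunit with COMPASS. In H3K36me3 at 20 min, 1 of 8 H2B ubiquitination genes was more than 0.25 above the median gene, as were 23% of all genes, and 2 were below by as much, as were 24.4%. For the Paf1 complex these counts were 2 and 0 of 5, for CPF 2 and 4 of 14, for genes of proteins that bind methylated H3K4 2 and 1 of 7, for the other histone methylases 0 and 1 of 3, and for the other JmjC demethylases 1 and 1 of 4. List medians at 20 min lay between 0.06 and 0.13, and that of the COMPASS subunit genes was 0.41. At 60 min they lay between -0.36 for the other methylases and 0.16 for the Paf1 complex, where that of the COMPASS subunit genes was 0.40. Most of these counts are of a few genes and lie near the shares over all genes. The lists differed in their starting levels. The median 0 min H3K36me3 percentile was 32.6 for the COMPASS subunit genes and 33.8 for the other JmjC demethylase genes, a like level. It was 42.2 for CPF, 46.4 for the other methylases, 68.7 for the genes of proteins that bind methylated H3K4, 73.1 for the H2B ubiquitination genes and 81.4 for the Paf1 complex genes.

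Single genes of these lists spread widely on both sides of the COMPASS genes. Of 41 genes in the 6 lists, 5 had a relative H3K36me3 change at 20 min above that of *BRE2*, the highest subunit gene at 0.49. They were picked out after their values were seen. *BRE2* was at percentile 91.6 of these changes among genes past the filter, so the count is near the share over all genes. *RPH1*, a JmjC gene, was at 0.88, *BYE1*, whose product binds methylated H3K4, at 0.63, *SYC1* of CPF at 0.58, *BRE1*, the H2B ubiquitin ligase gene, at 0.55 and *CFT1* of CPF at 0.52. *SET2*, the H3K36 methylase gene, had H3K36me3 of 2.79, 1.35, 1.61 and 1.23, a relative change of -0.63 at 20 min. *LGE1*, a partner of Bre1, had 3.93, 1.62, 1.75 and 1.44, a relative change of -0.86 at 20 min. *UBP10*, an H2B deubiquitinase gene, was at -1.22 at 60 min in H3K36me3 and at -0.78 in H3K4me3, the lowest of its list in both marks. *UBP8* of the SAGA deubiquitinase module was the highest of that list in H3K36me3 at 60 min, at 0.21. *BRE1* had the highest mean H3K4me3 of its list, with 7.32, 6.86, 7.43 and 6.47 at the 4 times. *SGF11* had the highest change there, at 0.19.

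Among the Paf1 complex genes, *PAF1* had H3K4me3 of 6.19, 7.33, 6.17 and 6.45, a relative change of 0.24 at 60 min, and all 5 were above the median gene, as 50% of genes are by construction. The lowest of them, *CDC73*, had 5.30, 4.71, 5.38 and 4.67. In H3K36me3 *PAF1* was the lowest of the 5 at 60 min, at -0.24, *LEO1* with the highest mean level was at -0.12 and *RTF1* was the highest at 0.36. In CPF, *REF2* had H3K4me3 of 3.84, 4.50, 4.68 and 4.63, a relative change of 0.45 at 60 min. *PTA1*, with the highest mean H3K4me3 of CPF, was at 0.23 and *MPE1* at -0.15. In H3K36me3 the phosphatase genes of CPF were at the ends, *GLC7* at -0.80 and *SSU72* at 0.50 at 60 min, and *MPE1* had the highest mean level and was at 0.30.

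Of the genes whose products bind methylated H3K4, *CTI6* of the Rpd3 deacetylase complex had the highest level in both marks and the lowest change at 60 min, -0.10 in H3K4me3 and -0.48 in H3K36me3. *YNG2* of the NuA4 acetylase was at 0.17 in H3K4me3, and *BYE1* at 0.51 in H3K36me3, each the highest of the list. Of the other methylases, *SET5* was at -0.06 in H3K4me3 and *DOT1*, of H3K79 methylation, at -0.26 in H3K36me3, while *SET2* was at 0.01 and -0.53. The other JmjC genes had higher levels of both marks than *JHD2* at every time. *RPH1* had H3K36me3 of 0.829, 1.15, 0.888 and 0.636, higher at 20 min than at 0 min, and H3K4me3 of 4.67 at 0 min with a relative change of -0.06 at 60 min. *GIS1* was at -0.44 in H3K4me3 and -0.31 in H3K36me3, *ECM5* at -0.33 in H3K36me3 and *JHD1* at -0.18 in H3K4me3. *ACT1*, the actin gene, was at -0.35 in H3K4me3 and -0.32 in H3K36me3 at 60 min.

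**Figure D5:**
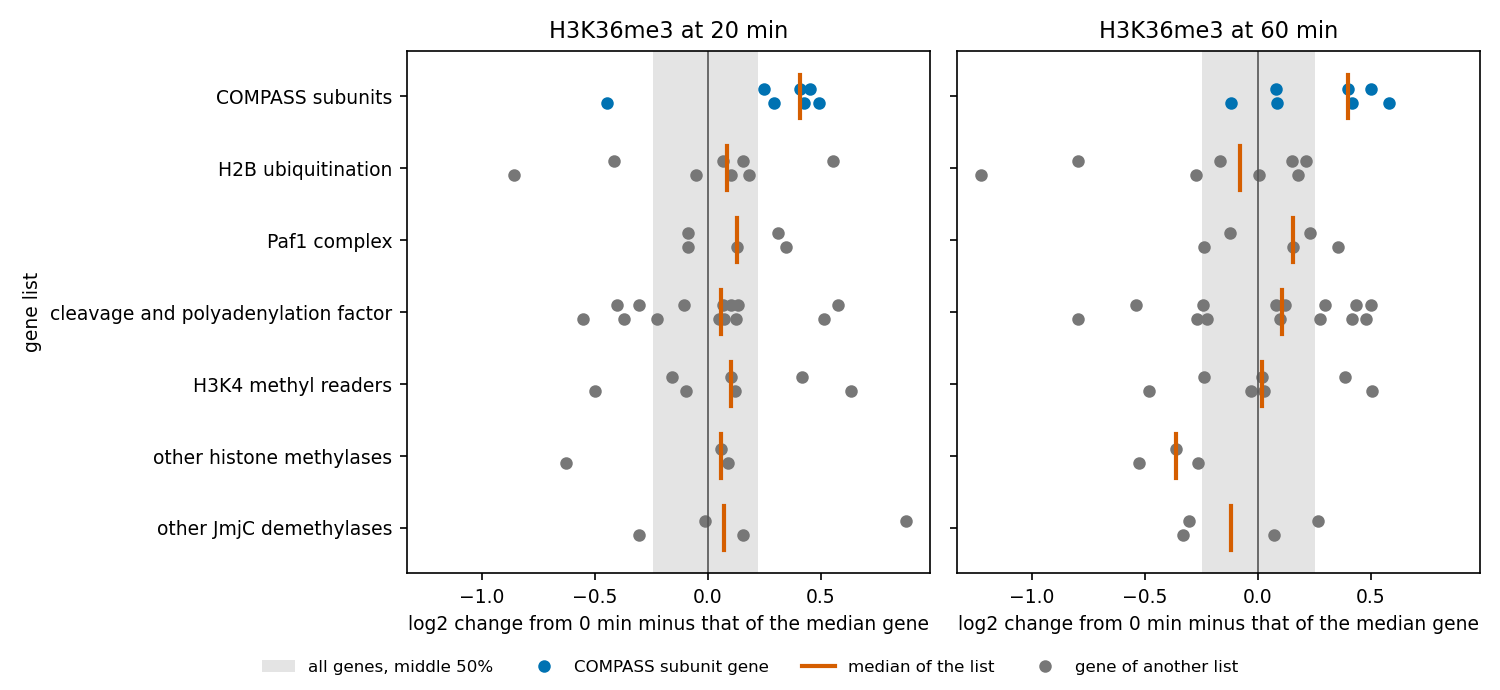
H3K36me3 change on the log2 scale minus that of the median gene (horizontal axis) at 20 min (left) and 60 min (right) for the genes of 7 lists (rows), with the median of each list as an orange bar and the middle 50% of all genes in grey. At 20 min the COMPASS subunit genes lie right of the grey band apart from *SWD3* (median 0.41), and medians of the other lists lie between 0.06 and 0.13.

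The subunit genes other than *SWD3* lay nearer to each other in their changes than to *SWD3*. This restates the values above, in which *SWD3* already stood apart. Over the 6 relative changes of each gene (2 marks at 3 later times), the closest pair was *BRE2* and *SPP1*, at a Euclidean distance of 0.24, followed by *SET1* and *SWD1* at 0.29. Pairs without *SWD3* lay at up to 0.60 (*SET1* and *SDC1*), which is close to the median distance of all genes from *SET1*, 0.71. Pairs with it lay between 0.92 (*SWD1*) and 1.28 (*SHG1*). With 1 library per mark and time these distances have no error. Of all genes past both filters, those nearest to *SET1* were *ALG8*, of protein glycosylation (distance 0.10), *PCL7*, a cyclin gene (0.13), and *UFD4*, a ubiquitin ligase gene (0.16), where the median distance over 4656 genes was 0.71. *ALG8* had a relative H3K36me3 change of 0.45 at 20 min and 0.12 at 60 min. Nearest to *JHD2*, whose H3K36me3 was under the minimum level, were YBL071C-B (0.15), *PRP42* of the U1 snRNP (0.17) and YMR230W-A (0.18), with a median distance of 0.75.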

How the data were processed

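The deposited file holds a signal per gene in 8 columns, headed by mark and time. Each was read as the immunoprecipitated library so labelled, although the headings name no library type. The labels list 16 libraries, 8 of them input, not used here as separate values. Per the labels' protocols, 25% of *S. pombe* cells served as spike-in, and Bowtie2, SAMtools and bedtools with sacCer3 and ASM294v2 are named per the submitters' processing notes. Division by input, length or spike-in is not given in the sources used here. Of 5222 lines, 3 were blank and 1 held no values, leaving 5218 genes, of which 5115 matched the RefSeq R64 table (the assembly called sacCer3). Strand was read from the systematic name.

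Log2 changes used a pseudocount of 1% of the 0 min median (0.0491 and 0.0108). The filter kept genes whose mean level was at least 25% of the median mean level, 4826 for H3K4me3 and 4861 for H3K36me3. A percentile is the share of genes below a value. Calculations used Python 3.11.15 with pandas 2.3.3 and were tested on simulated data. Genes named besides the members were their neighbours, from each list the most strongly marked gene and the ends of the 60 min changes, the 3 genes nearest in pattern to *SET1* and *JHD2*, and *ACT1*; *FPR1* was added as a check of the labels. Members and lists were chosen with earlier results of these data known.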

Additional observations from a re-analysis of the deposited data

How the results depend on the processing

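With no replicates, a value was said to move when it shifted by more than the half-width of the middle 50% of genes, a count when it moved by more than 1.5 times, and a level percentile by more than 25 points. Most shifts came with another base than the 0 min library, which also changes the interval measured. They cannot show whether the changes from 0 min depend on that library. Without it, the median relative H3K36me3 change of the members was 0.11 at 20 min (40 min as the base), and -0.11 at 40 min and -0.032 at 60 min (20 min as the base), and that of H3K4me3 was -0.11 at 40 min. Members more than 0.25 above the median gene in H3K36me3 then numbered 2 of 7 at 20 min (15.4% of all genes past the filter) and 1 at 60 min (18.3%), 1 was more than 0.25 below it (19.0%), and 6 of 8 had H3K4me3 below the 20 min level at both later times (32.6%). *BRE2* and *SPP1* were at -0.083 and -0.032 in H3K36me3 from 20 to 60 min, near the median gene. These are opposite in sign to their changes from 0 to 60 min but cover another interval. With a threshold of 0.5, the counts above in H3K36me3 were 0 at 20 min (8.23% of genes) and 2 at 60 min (9.87%). Members below 0 min at all 3 later times numbered 0 of 8 in H3K4me3 when scaled to the lowest 5% of genes (9.47% of genes) and 1 when scaled to the median gene (23.1%), both near the shares over all genes, and 1 of 7 in H3K36me3 on those scales (44.9% and 35.8%) and on column totals (29.2%). *JHD2* turned to 0.057 in H3K36me3 with the larger pseudocount. Of 79 recomputed medians and counts 64 stayed, and of 64 values of single members 51 did; the other 10 that moved did so without the 0 min library. No paired analysis was possible because each group has 1 library. The cause of these shifts was not tested.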
